A study of Mus musculus with 14 samples.

Results

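The genes described here are 10 secreted ligands of 4 kinds in BCR-ABL leukemic stem cells of the mouse. They are the angiogenic factors Vegfa and Pgf, the EGF-family ligands Hbegf and Areg, the IL-6-family cytokines Osm, Lif and Il6, and the inflammatory and regulatory cytokines Il1b, Tnf and Tgfb1. They are 10 of the 24463 genes in the files. They were chosen from a list of secreted ligands by their expression values with the values of all 5 groups known, so their own levels and differences are a description and carry no test. RNA was measured in 14 libraries of leukemic stem cells (LSCs), made by infecting lineage-depleted bone marrow with a p210 BCR-ABL retrovirus in 2 rounds 24 h apart and sorted at 48 h as Lin- c-Kit+ Sca1+ cells carrying GFP. The dKO group holds 3 libraries of untreated LSCs from marrow deficient in Tcf1 and Lef1, and the WT group holds 3 libraries of untreated LSCs from control marrow. The other 8 libraries come from control LSCs kept for a further 6 h with 20 µM PGE1 (3 libraries), with 20 µM PGE2 (2 libraries) or with DMSO (3 libraries), the vehicle of both prostaglandins. All 5 groups carry the BCR-ABL retrovirus and were cultured with 50 ng/ml stem cell factor, 20 ng/ml thrombopoietin and 15% fetal bovine serum, so no group is free of the oncogene or of cytokine. The labels give neither the Cre nor the allele behind the deficiency, nor the age and sex of the mice. They do not say whether the replicates are separate mice or cultures, so the errors measure only the spread between these libraries.

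Secreted ligands act on the cells that make them or on their neighbours, and blood cells keep many of their messages short-lived. VEGF-A and placental growth factor share the receptor FLT1. HB-EGF and amphiregulin are made as membrane proteins that a protease sheds before they bind the EGF receptor. Oncostatin M, LIF and IL-6 signal through the shared receptor chain gp130, while IL-1β is cut by caspase-1, TNF is shed from the membrane, and TGF-β1 is secreted in a latent form that needs activation. Prostaglandin E raises cyclic AMP through its receptors EP2 and EP4, and cyclic AMP acts on genes with a cyclic AMP response element (CRE). TGF-β1 is known for holding blood stem cells quiescent, and IL-1β, TNF and IL-6 are known in this setting as signals that drive myeloid output. PGE2 differs from PGE1 in structure by an additional carbon-carbon double bond in the side chain that ends in the carboxyl group.

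Printed below are the start-site sequences of 5 of the genes. By group mean, Areg and Vegfa were highest with PGE1, and Pgf, Il6 and Lif were highest with DMSO. Il1b was also highest with PGE1, and Tnf, Tgfb1 and Hbegf with DMSO, and these genes are not printed. The printed genes therefore do not stand for all genes of either set, and no contrast of motifs between the sets is read from them. The RefSeq promoter table (build GRCm38.p6) has an entry for 8 of the 10 genes, in 10 windows, since Vegfa and Pgf have 2 start sites each. Osm and Hbegf have no entry. The 250 bases before the start are given 5′ to 3′ on the gene's strand, with matches to a motif in capitals. The Areg window is chr5:91139349-91139598 on the plus strand, and the Vegfa window, at the first of its start sites, is chr17:46032378-46032627 on the minus strand. The Pgf window, also at the first start site, is chr12:85177314-85177563 on the minus strand. The Il6 window is chr5:30012864-30013113 and the Lif window chr11:4257318-4257567, both on the plus strand.

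Areg: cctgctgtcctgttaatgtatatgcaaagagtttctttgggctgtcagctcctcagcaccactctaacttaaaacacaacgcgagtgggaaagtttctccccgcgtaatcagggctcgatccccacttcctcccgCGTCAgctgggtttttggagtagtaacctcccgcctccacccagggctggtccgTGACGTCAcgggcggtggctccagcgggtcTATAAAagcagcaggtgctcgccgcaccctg

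Vegfa: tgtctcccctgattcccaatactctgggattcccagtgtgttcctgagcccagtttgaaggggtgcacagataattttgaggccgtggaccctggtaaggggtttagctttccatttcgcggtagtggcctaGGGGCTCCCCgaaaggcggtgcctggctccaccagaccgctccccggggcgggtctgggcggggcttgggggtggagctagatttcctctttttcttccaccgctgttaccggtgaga

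Pgf: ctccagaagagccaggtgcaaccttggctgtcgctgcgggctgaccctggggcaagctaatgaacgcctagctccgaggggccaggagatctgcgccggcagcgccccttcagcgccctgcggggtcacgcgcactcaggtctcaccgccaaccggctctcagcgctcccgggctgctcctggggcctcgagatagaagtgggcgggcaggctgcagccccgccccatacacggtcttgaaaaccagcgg

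Il6: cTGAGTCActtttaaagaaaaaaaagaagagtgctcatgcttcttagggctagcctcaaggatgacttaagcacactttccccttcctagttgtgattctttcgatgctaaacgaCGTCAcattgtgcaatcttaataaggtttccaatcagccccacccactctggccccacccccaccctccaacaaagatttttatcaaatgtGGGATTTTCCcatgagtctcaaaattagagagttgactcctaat

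Lif: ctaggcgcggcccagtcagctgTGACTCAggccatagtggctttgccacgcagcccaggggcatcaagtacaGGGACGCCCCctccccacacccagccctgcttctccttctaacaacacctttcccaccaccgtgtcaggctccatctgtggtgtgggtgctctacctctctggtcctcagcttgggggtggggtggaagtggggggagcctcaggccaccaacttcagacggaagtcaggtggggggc

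Motifs were sought on both strands, except the TATA box (TATAAA), which was sought on the gene's strand. The full CRE (TGACGTCA) was found in the Areg promoter, with its first base at position -61 from the start, and 1.79% of the 32851 RefSeq promoter windows of 300 bases hold it. The Areg window also holds a CRE half-site (TGACG, which is part of the full CRE) at -115 and a TATA box at -31. Half-sites occur in 20.8% of all windows and the TATA box in 8.32%. The Il6 window holds an AP-1 site (TGANTCA) at -249, a CRE half-site at -135 and an NF-κB site at -44. The Lif window holds an AP-1 site at -228 and an NF-κB site at -178. AP-1 sites occur in 7.81% of all windows and NF-κB sites in 8.46%. The printed Vegfa window holds an NF-κB site at -118. The other Vegfa window (chr17:46025164-46025413, minus strand) lies downstream of the printed one in the direction of the gene. There a CRE half-site at -209 overlaps ACGTG at -211. ACGTG has the letters of the core of the hypoxia response element and is present in 19.6% of all windows. Neither match lies in the window before the first Vegfa start site. Neither Pgf window holds any of these motifs. In the windows not printed, Il1b has a TATA box at -31, Tnf has a TATA box at -29, and Tgfb1 has an NF-κB site at -140. A match describes letters in the window and is not evidence that a factor binds there.

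The libraries dKO replicate 1, PGE1 replicate 2 and DMSO replicate 1 stood apart from others of their group. Over genes with many reads, the squared difference between a pair of replicates, divided by that expected from counting noise, was 14 and 14.8 for the pairs with dKO replicate 1 against 5.19 for the other dKO pair. It was 41.4 and 43.1 for the pairs with PGE1 replicate 2 against 11.4 for the other PGE1 pair, and 15.0 and 17.1 for the pairs with DMSO replicate 1 against 1.84 for the other DMSO pair. The WT pairs gave 2.09 to 2.93 and the PGE2 pair 2. The genotype field of dKO replicate 1 says wild type and that of DMSO replicate 1 says deficient, against their titles. Tcf7, the gene for Tcf1, was at 0.0219 to 0.142 FPKM (fragments per kilobase of transcript, scaled to the library's depth) in the dKO libraries, with 0.142 in dKO replicate 1, and at 1.15 to 1.48 FPKM in WT. Its level in DMSO replicate 1 was 1.03 FPKM, between 0.85 and 1.53 FPKM in the other DMSO libraries, so both libraries followed their titles in Tcf7. Lef1 was at 0.105 to 0.184 FPKM in dKO and 0.223 to 0.319 FPKM in WT libraries. It was at 0.279 FPKM in DMSO replicate 1, but at 0.181 and 0.166 FPKM in the other DMSO libraries, within the dKO range. Lef1 thus does not separate DMSO from dKO libraries, and the check rests on Tcf7. The Y-linked Ddx3y had no read in any dKO library and averaged 8.45 ± 0.646 FPKM in WT (SD, n = 3), so genotype and the sex of the source mice cannot be told apart. Xist, expressed from the inactive X chromosome of females, averaged 21.9 FPKM in dKO, 10.1 in WT, 5.95 in PGE1, 14.8 in PGE2 and 10.5 in DMSO libraries, while Ddx3y averaged 7.35 to 9.06 FPKM in the treated groups. RNA of both sexes was thus present in WT and treated libraries, and the part of sex in the differences below was not tested. Reads in genes numbered 19.0 to 20.6 M in dKO and 19.2 to 19.9 M in WT libraries, and 11.6 to 13 M in PGE1, 11.3 to 13 M in PGE2 and 12.6 to 13.4 M in DMSO libraries.

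The gate genes were present in every group. Kit, which encodes c-Kit, averaged 23.0 FPKM in dKO, 28 in WT, 42.2 in PGE1, 23.0 in PGE2 and 26.1 in DMSO libraries, and both it and Ly6a, which encodes Sca1, fell in dKO against WT. Ly6a averaged 3.12 FPKM in dKO, 11.3 in WT, 13 in PGE1, 12.7 in PGE2 and 14.9 in DMSO libraries. Of 8 lineage markers that the sort should exclude, 1, Itgam, was above 1 FPKM, at group means of 30.6 to 62.7 FPKM, and Cd3e and Cd8a had no read in dKO. RNA of neutrophil granule genes was abundant: 10 such genes summed to 9364 to 9494 FPKM in dKO, 6975 to 7315 in WT, 1822 to 2678 in PGE1, 6885 to 6962 in PGE2 and 4699 to 5589 in DMSO libraries, with none of the 10 at 0. Elane, Mpo and Prtn3, the primary granule genes of early precursors, made up most of that sum, at 2806, 3150 and 1862 FPKM in dKO and 2030, 2499 and 1158 FPKM in WT on average. In dKO against WT, 4 of the 10 were higher and 5 lower (limma), and the later granule genes Ltf and Camp averaged 3.26 and 8.27 FPKM in dKO, against 22.4 and 49.2 FPKM in WT.

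Between the groups, the 10 ligands did not behave as 1 block. The dKO libraries had lower Pgf, Il1b, Tnf and Hbegf than WT. Both prostaglandins went with higher Vegfa and Il1b and lower Pgf, Hbegf, Tnf, Il6 and Lif than DMSO. With PGE1, Areg was also higher, and Osm and Tgfb1 lower, than with DMSO. Of these differences from DMSO, those of Il1b and Il6 with PGE2 missed the threshold used for all genes, and Lif and Areg were too low to be tested. With PGE2, Osm and Tgfb1 missed the threshold too, at log2 differences of 0.15 and -0.04. DMSO-treated LSCs lay above untreated WT LSCs in every library for 9 of the 10, Vegfa being the exception. Of the 8 ligands over the expression minimum 7 did so, where 29.3% of all genes over it lay higher without overlap and 35% lower. The ligands were chosen with these values known, so nothing is read from that count. Il6 passed the minimum there only through the DMSO libraries, with means of 0.519 FPKM in WT and 2.74 FPKM in DMSO. As a ratio, Pgf had the widest range of group means among the ligands with reads in every library, with 0.129 FPKM in dKO as the lowest and 18.2 FPKM in DMSO as the highest, while Tgfb1 had the highest level, with group means of 144 to 203 FPKM.

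**Figure D1:**
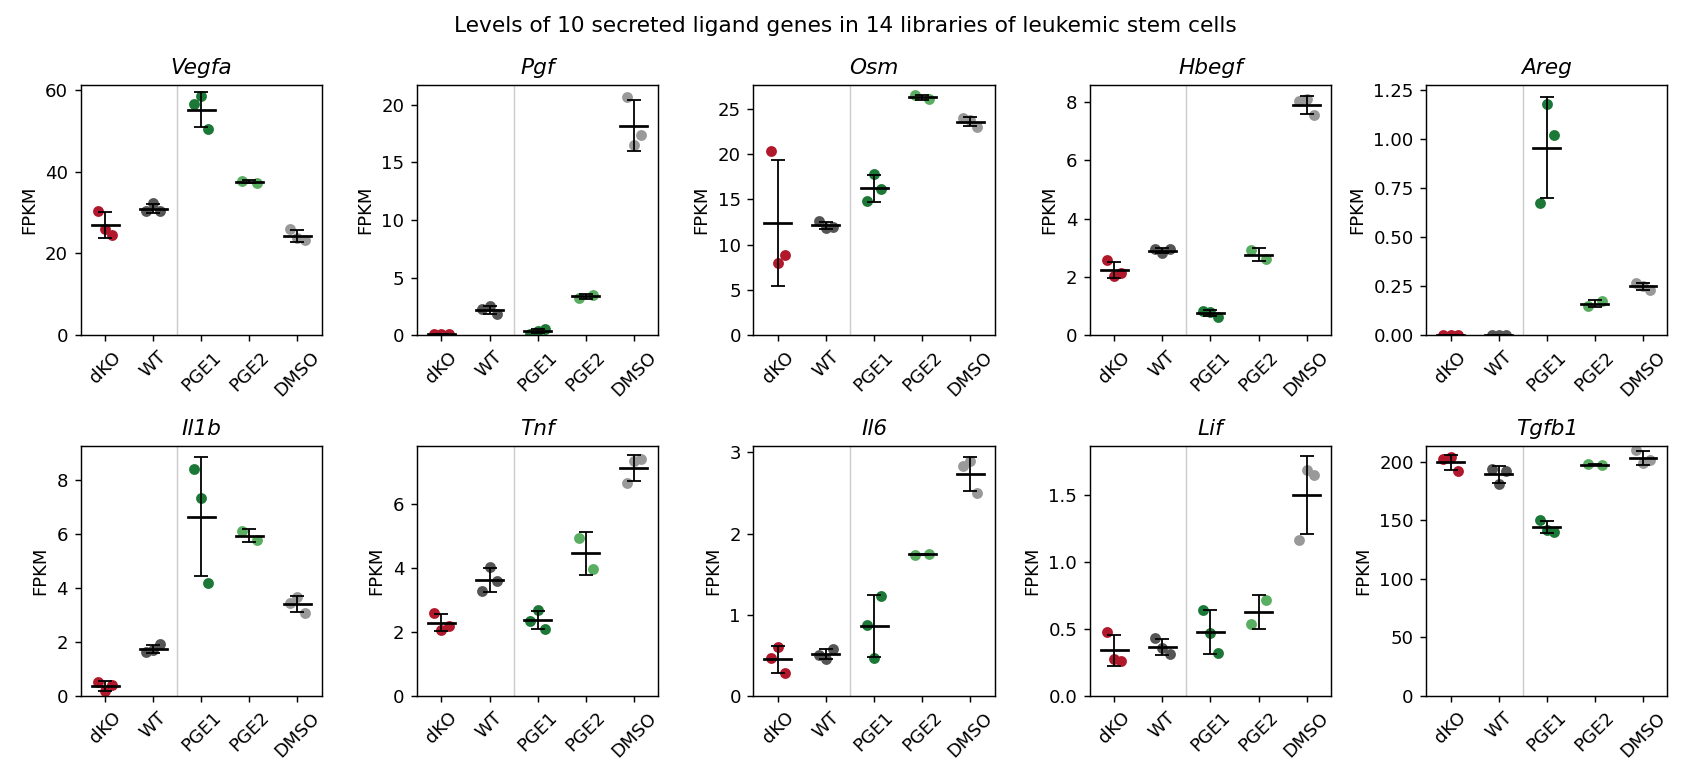
FPKM of the 10 ligand genes (y axis, linear, 1 scale per gene) in each of the 14 libraries, by group (x axis: dKO, WT, PGE1, PGE2, DMSO); points are libraries, the thick line is the group mean and the bars are ± 1 SD (n = 3, and n = 2 for PGE2). Pgf and Hbegf are highest in the DMSO libraries, Vegfa is highest in the PGE1 libraries, and 1 dKO library stands apart for Osm at 20.4 FPKM.

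Vegfa is the main factor for blood vessel growth and is also made by leukemic blood cells. It was at 30.4, 26.0 and 24.4 FPKM in the dKO libraries, against 30.4, 32.2 and 30.3 FPKM in WT. The groups overlapped through dKO replicate 1, and the log2 difference was -0.20 (SE 0.08, 95% interval -0.38 to -0.02), or -0.29 without that library. Every log2 difference here is of log2(FPKM + 1), and the added 1 shrinks the differences of genes near or under 1 FPKM. With PGE1 Vegfa reached 56.6, 58.4 and 50.4 FPKM, with PGE2 37.8 and 37.3 FPKM, against 26.0, 23.8 and 23.2 FPKM with DMSO. The 3 groups did not overlap: PGE1 was highest, PGE2 intermediate and DMSO lowest. The means were 2.27-fold higher with PGE1 and 1.55-fold higher with PGE2 than with DMSO, and the log2 differences were 1.15 (SE 0.07) and 0.61 (SE 0.08). Vegfa was the only ligand of the 10 with lower levels in DMSO than in WT LSCs, at a log2 difference of -0.34 (SE 0.05) and with no overlap. In the order of group means, PGE1, PGE2, WT, dKO and DMSO, only the neighbours WT and dKO, and dKO and DMSO, overlapped.

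Pgf encodes placental growth factor, a VEGF relative that binds FLT1 and not KDR. It was close to absent in the dKO libraries, at 0.126, 0.14 and 0.119 FPKM from 5, 6 and 5 reads, against 2.28, 2.51 and 1.83 FPKM from 94, 102 and 77 reads in WT. The WT mean was 17.2-fold above the dKO mean, and the log2 difference of dKO against WT was -1.50 (SE 0.10), unchanged without dKO replicate 1 at -1.50. With a pseudocount of 0.1 in place of 1 it was -3.33. Pgf was at 0.144, 0.405 and 0.526 FPKM with PGE1, from 4, 10 and 14 reads, and at 3.23 and 3.53 FPKM with PGE2. With DMSO it was at 20.7, 16.5 and 17.4 FPKM. The DMSO mean was thus 50.8-fold above the PGE1 mean and 5.38-fold above the PGE2 mean, with log2 differences of -3.82 (SE 0.13) for PGE1 and -2.13 (SE 0.14) for PGE2 against DMSO. Against untreated WT the DMSO mean was 8.23-fold higher, a log2 difference of 2.58 (SE 0.10). No neighbours overlapped in the order DMSO, PGE2, WT, PGE1 and dKO. The PGE1 libraries therefore lay below the untreated WT libraries, and the PGE2 libraries above them.

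Hbegf encodes heparin-binding EGF-like growth factor, a ligand of EGFR and ERBB4 that is also the cell-surface receptor of diphtheria toxin in human cells. Its levels were 2.57, 2.03 and 2.13 FPKM in dKO and 2.96, 2.82 and 2.95 FPKM in WT libraries. The groups did not overlap, but the log2 difference was small at -0.27 (SE 0.08), and -0.07 after quantile normalization. PGE1 libraries had 0.823, 0.798 and 0.641 FPKM from 43, 37 and 32 reads, PGE2 libraries had 2.92 and 2.61 FPKM, and DMSO libraries had 8.05, 8.12 and 7.56 FPKM. The DMSO mean was 10.5-fold above the PGE1 mean and 2.86-fold above the PGE2 mean. The log2 differences against DMSO were -2.35 (SE 0.08) for PGE1 and -1.24 (SE 0.09) for PGE2, and that of DMSO against WT was 1.19 (SE 0.06). WT and PGE2, next to each other in the order DMSO, WT, PGE2, dKO and PGE1, overlapped, and the other neighbours did not.

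Areg encodes amphiregulin, an EGFR ligand whose promoter carries the full CRE printed above. No read of it was found in any dKO or WT library, where 3 reads would have been 0.073 to 0.079 FPKM in dKO and 0.0745 to 0.077 FPKM in WT. The PGE1 libraries had 18, 28 and 26 reads, or 0.673, 1.18 and 1.02 FPKM. The PGE2 libraries had 4 and 4 reads (0.151 and 0.173 FPKM) and the DMSO libraries 7, 7 and 6 reads (0.267, 0.254 and 0.231 FPKM). PGE1 was thus above the other groups in every library, with a mean 3.82-fold that of DMSO and 5.91-fold that of PGE2. The PGE1 mean was at least 12.4-fold, the PGE2 mean at least 2.1-fold and the DMSO mean at least 3.25-fold above the level that 3 reads give in WT. The PGE2 and DMSO libraries did not overlap, but the counting intervals of the single libraries did. Areg was under the expression minimum, so the difference between these groups was not tested. Areg and Hbegf, ligands of the same receptor, thus differed in opposite directions between PGE1 and DMSO.

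Osm encodes oncostatin M, a gp130 cytokine made by myeloid cells and a target of STAT5, which BCR-ABL activates. It was at 20.4, 7.96 and 8.84 FPKM in dKO and at 12.6, 11.8 and 12 FPKM in WT libraries. Replicate 1 of dKO lay above all WT libraries and the other dKO libraries lay below them. The log2 difference of -0.09 (SE 0.29, 95% interval -0.77 to 0.59) thus rests on that library, and without it was -0.49. PGE1 libraries had 14.8, 17.8 and 16.1 FPKM, PGE2 libraries 26.5 and 26.1 FPKM, and DMSO libraries 24.0, 23.8 and 23.0 FPKM. Osm was lower with PGE1 than with DMSO, at a log2 difference of -0.52 (SE 0.07). For PGE2 against DMSO the difference was 0.15 (SE 0.08, 95% interval -0.03 to 0.33), although no library overlapped. DMSO exceeded WT by 0.90 (SE 0.04) on the log2 scale. In the order PGE2, DMSO, PGE1, dKO and WT, the neighbours PGE1 and dKO overlapped, as did dKO and WT.

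Lif encodes leukemia inhibitory factor, named for the arrest it induces in a mouse myeloid leukemia line. Its reads gave 0.478, 0.28 and 0.264 FPKM in dKO and 0.435, 0.357 and 0.316 FPKM in WT libraries, which overlapped. It was at 0.645, 0.472 and 0.32 FPKM with PGE1, at 0.538 and 0.719 FPKM with PGE2, and at 1.17, 1.69 and 1.65 FPKM with DMSO. Every prostaglandin library was below every DMSO library, and the DMSO mean was 3.14-fold above the PGE1 mean, 2.39-fold above the PGE2 mean and 4.07-fold above the WT mean. PGE2, PGE1, WT and dKO, in that order below DMSO, each overlapped with the next.

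Il6 encodes interleukin 6, which acts through IL6RA and gp130. It had 16, 22 and 10 reads in dKO libraries (0.472, 0.601 and 0.279 FPKM) and 18, 16 and 21 reads in WT libraries (0.51, 0.461 and 0.585 FPKM). Those groups overlapped, and no difference was detectable at this depth. Il6 was at 0.881, 0.473 and 1.23 FPKM with PGE1, at 1.74 and 1.75 FPKM with PGE2, and at 2.83, 2.89 and 2.5 FPKM with DMSO. The 3 groups did not overlap, PGE1 being lowest and DMSO highest. The log2 differences against DMSO were -1.03 (SE 0.15) for PGE1 and -0.45 (SE 0.16, 95% interval -0.82 to -0.08) for PGE2, which missed the threshold used for all genes, and DMSO exceeded WT by 1.30 (SE 0.08).

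**Figure D2:**
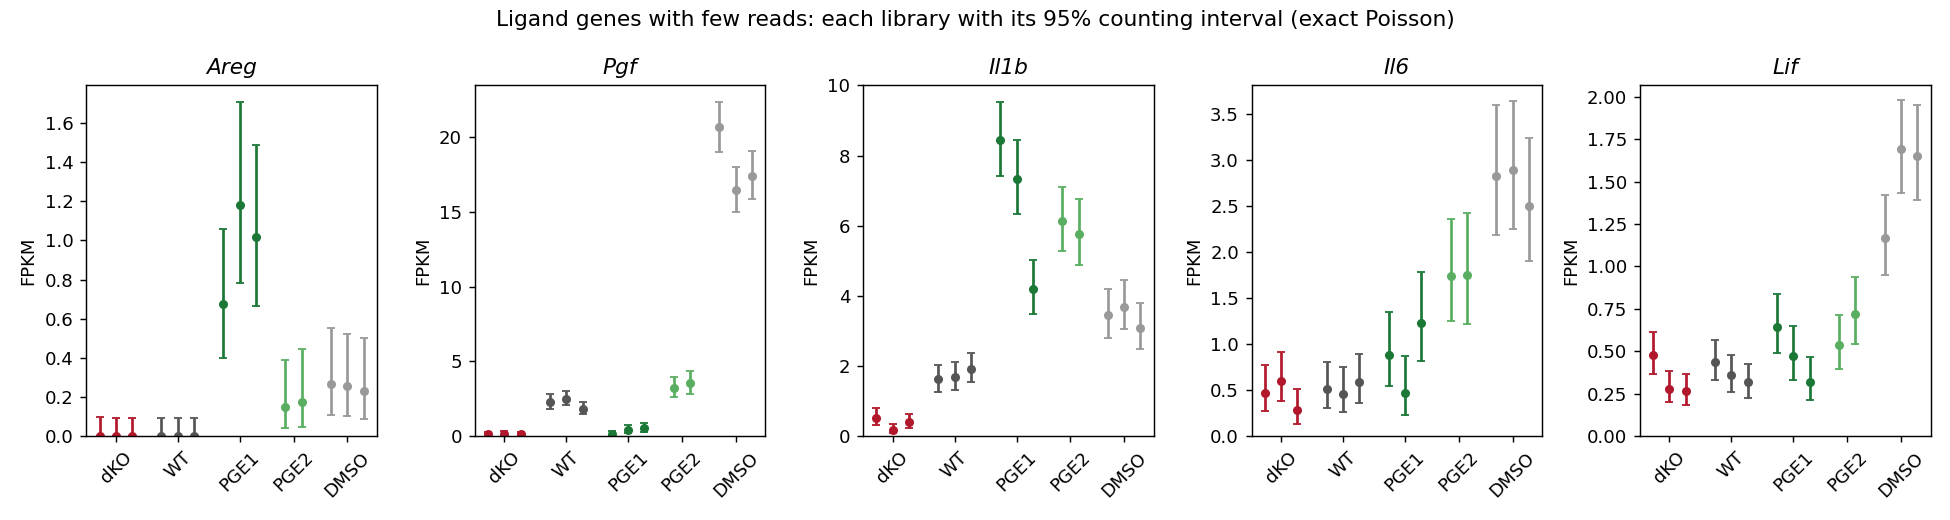
FPKM (y axis, linear) of the 5 ligand genes with the fewest reads in any single library, Areg, Pgf, Il1b, Il6 and Lif, in each of the 14 libraries by group (x axis: dKO, WT, PGE1, PGE2, DMSO); points are libraries and bars are exact 95% Poisson intervals of the read count, which cover counting error only. The intervals of Pgf in DMSO libraries lie above those of all other libraries, while the Areg intervals of PGE2 and DMSO libraries overlap.

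Il1b encodes interleukin 1β, the inflammasome product of activated myeloid cells. It was at 0.522, 0.176 and 0.404 FPKM in dKO, from 22, 8 and 18 reads, and at 1.62, 1.69 and 1.92 FPKM in WT libraries. The WT mean was 4.75-fold above the dKO mean, with a log2 difference of dKO against WT of -1.01 (SE 0.11). PGE1 libraries had 8.43, 7.34 and 4.2 FPKM, PGE2 libraries 6.13 and 5.77 FPKM, and DMSO libraries 3.44, 3.69 and 3.09 FPKM. Both prostaglandin groups were above DMSO in every library, 1.95-fold for PGE1 and 1.75-fold for PGE2. The log2 difference was 0.75 (SE 0.19) for PGE1 and 0.66 (SE 0.22, 95% interval 0.17 to 1.15) for PGE2, and the PGE2 value missed the threshold used for all genes. DMSO exceeded WT by 0.68 (SE 0.08). PGE1 and PGE2 overlapped, and in the order PGE1, PGE2, DMSO, WT and dKO no other neighbours did.

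Tnf encodes tumor necrosis factor, a cytokine known to be made by human chronic myeloid leukemia stem cells themselves. It was at 2.59, 2.08 and 2.2 FPKM in dKO and at 3.29, 4.04 and 3.59 FPKM in WT libraries, a log2 difference of -0.49 (SE 0.09). PGE1 libraries had 2.35, 2.68 and 2.1 FPKM, PGE2 libraries 4.95 and 3.99 FPKM, and DMSO libraries 6.68, 7.35 and 7.42 FPKM. PGE1 was lowest and DMSO highest, with no overlap. The log2 differences against DMSO were -1.27 (SE 0.10) for PGE1 and -0.58 (SE 0.11) for PGE2, and that of DMSO against WT was 0.81 (SE 0.08). Tnf and Il1b, often named together as inflammatory cytokines, were both lower in dKO than in WT and both higher in DMSO than in WT, but lay on opposite sides of DMSO in both prostaglandin groups. In these bulk libraries, fewer cells that make a ligand and less RNA per cell cannot be told apart. Genes of monocytes and macrophages differed with genotype in the same direction as Il1b and Tnf: 10 of 10 were lower in dKO, and their sum was 125 to 137 FPKM in dKO and 810 to 847 FPKM in WT libraries, with none at 0. Between the treated groups that sum was 835 to 1068 FPKM with PGE1, 1082 to 1089 FPKM with PGE2 and 825 to 969 FPKM with DMSO. Single genes weighed heavily in it. Lyz2, the highest, averaged 405 FPKM with PGE1, 588 with PGE2 and 468 with DMSO. Cd14 averaged 297 FPKM with PGE1, 70.9 with PGE2 and 46.6 with DMSO, so the sum does not show how most of the genes differed. Among the same 10 genes, 2 were higher and 6 lower with PGE1, and 2 were higher with PGE2 (limma), against 4 at an unadjusted p under 0.05, with 0 lower either way. Their part in these results was not tested.

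Tgfb1 encodes TGF-β1 and was the most abundant of the 10 messages in every library. It was at 202, 204 and 192 FPKM in dKO and at 194, 181 and 192 FPKM in WT libraries, which overlapped, with a log2 difference of 0.08 (SE 0.04, 95% interval -0.02 to 0.17) that was -0.06 after quantile normalization. PGE1 libraries had 150, 142 and 140 FPKM, below the PGE2 libraries at 198 and 197 FPKM and the DMSO libraries at 210, 199 and 201 FPKM. The log2 differences against DMSO were -0.50 (SE 0.06) for PGE1 and -0.04 (SE 0.07, 95% interval -0.20 to 0.12) for PGE2. DMSO exceeded WT by 0.10 (SE 0.05, 95% interval -0.01 to 0.21). PGE1 lay below all the other groups, whose means were 189 to 203 FPKM. Among those, DMSO lay above PGE2 and WT in every library, and PGE2 lay above WT in every library. The dKO libraries overlapped with DMSO, PGE2 and WT.

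Counts of the ligands past the all-gene threshold stand here beside the share of all genes past it, and since the values of these genes chose them, nothing is read from the counts. An expression minimum of 1 FPKM over the libraries of a fit left out Areg and Lif everywhere and Il6 in dKO against WT. For dKO against WT, 4 of the 7 ligands tested passed an adjusted p of 0.05 (limma), all lower, where 40.9% of all genes tested passed. For PGE1 against DMSO, 8 of 8 passed, 2 higher and 6 lower, where 49.1% of all genes passed. For PGE2 against DMSO, 4 of 8 passed, 1 higher and 3 lower, where 5.57% of all genes passed. For PGE1 against PGE2, 7 of 8 passed, 1 higher and 6 lower, where 53.9% of all genes passed. For DMSO against WT, 7 of 8 passed, 6 higher and 1 lower, where 56.6% of all genes passed. The comparisons with DMSO share its 3 libraries, and the comparisons with WT share the WT libraries, so they are not independent of one another. Of the genes called between dKO and WT, 44.1% were higher in dKO, and 60.2% were after quantile normalization. The Hbegf call in dKO against WT was lost without any single WT library, without dKO replicate 2 or 3, with no expression minimum or after quantile normalization. Il1b and Pgf passed the expression minimum through the WT libraries: Il1b fell under it without any single WT library and Pgf without WT replicate 1 or 2, so 1 or 2 ligands remained called there. Without dKO replicate 1, Vegfa and Osm passed as well, and Vegfa also passed after quantile normalization.

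**Figure D3:**
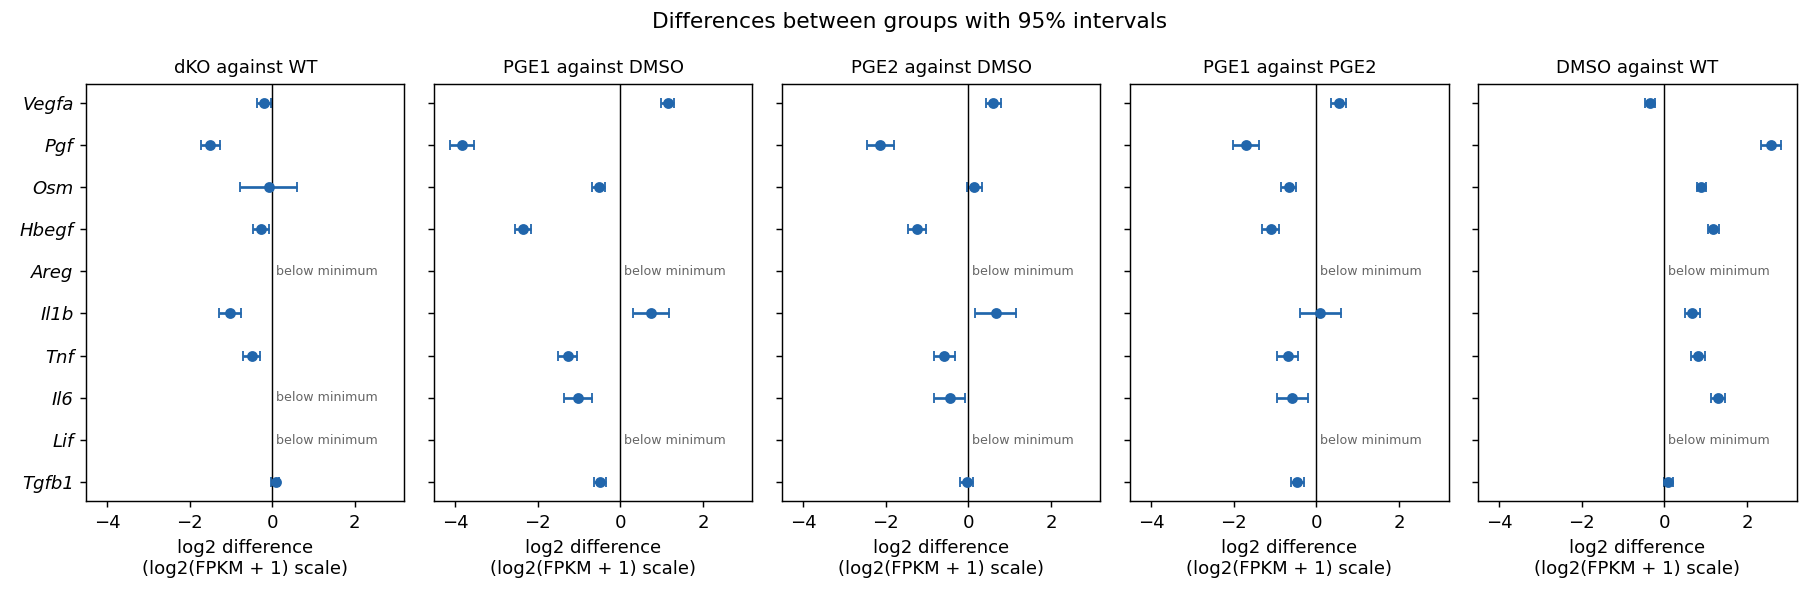
Log2 difference of each ligand on the log2(FPKM + 1) scale (x axis) in 5 comparisons (panels: dKO against WT, PGE1 against DMSO, PGE2 against DMSO, PGE1 against PGE2, DMSO against WT), with bars for 95% intervals from limma; genes under the expression minimum are marked. Pgf has the largest difference in each panel, from -3.82 for PGE1 against DMSO to 2.58 for DMSO against WT.

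The prostaglandins were compared directly at the matched dose of 20 µM and time of 6 h, the only pair of compounds in the series. With PGE1 the levels of Pgf, Hbegf, Osm, Tnf, Il6 and Tgfb1 were below those with PGE2 in every library, and those of Vegfa and Areg were above. Among the 8 over the expression minimum these were 6 below and 1 above, where 33.7% of all genes lay lower without overlap and 36.2% higher. Nothing is read from these counts either, since the values of the ligands chose them. The log2 differences of PGE1 against PGE2 were -1.70 (SE 0.14) for Pgf, -1.10 (SE 0.09) for Hbegf and -0.69 (SE 0.11) for Tnf. They were -0.67 (SE 0.08) for Osm, -0.58 (SE 0.16) for Il6 and -0.46 (SE 0.07) for Tgfb1. For Vegfa the difference was 0.54 (SE 0.08). For Il1b it was 0.10, with a 95% interval of -0.40 to 0.59 that covers differences in either direction, and it was 0.35 without PGE1 replicate 3, the lowest PGE1 library at 4.2 FPKM. Lif overlapped between the prostaglandins. The mean with PGE2 lay between those with PGE1 and DMSO for Vegfa, Pgf, Hbegf, Tnf, Il6, Il1b, Lif and Tgfb1. For Osm and Areg it did not. Leaving out a single PGE2 library ended the calls of Vegfa and Tnf against DMSO and of Il6 between the prostaglandins, with 1 PGE2 library left that is assumed to vary like the other groups. The differences without PGE2 replicate 1 or 2 were then 0.60 and 0.62 for Vegfa, -0.71 and -0.45 for Tnf, and -0.58 both times for Il6. The Tnf call against DMSO was also lost without DMSO replicate 2 or 3. The neutrophil sum given above was lower with PGE1 than with PGE2 or DMSO in every library, and 9 mast cell and basophil genes summed to 296 to 371 FPKM with PGE1, 209 to 213 FPKM with PGE2 and 219 to 241 FPKM with DMSO, with Mcpt4 at 0 in the PGE2 and DMSO libraries. Of the 10 neutrophil genes 8 fell with PGE1 against DMSO and 0 rose (limma; 0 higher at an unadjusted p under 0.05), and of the 8 mast cell and basophil genes tested 5 rose and 1 fell. Their part in the differences was not tested.

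RNA of the receptors for TNF, IL-6, IL-1 and TGF-β1 was present in the LSCs of every group, and that of the EGF receptor was at or near 0. Egfr averaged at most 0.0173 FPKM and Erbb2 at most 0.00645 FPKM in any group, and Erbb4 had no read in the 14 libraries. The only EGF-family receptor near 1 FPKM was Erbb3, at 0.958 to 1.13 FPKM, and that receptor binds neither HB-EGF nor amphiregulin. Osmr, the specific chain of the oncostatin M receptor, averaged at most 0.0163 FPKM, and Lifr 0.0928 to 0.379 FPKM. By contrast Il6ra was at 4.11 to 12.3 FPKM and the shared chain Il6st (gp130) at 2.61 to 8.16 FPKM. The TNF receptors were the highest, with group means of Tnfrsf1a from 32.4 to 51.2 FPKM and of Tnfrsf1b from 31.5 to 59.9 FPKM. The TGF-β receptor chains Tgfbr1 and Tgfbr2 had group means of 4.73 to 10.3 FPKM and 3.69 to 12.6 FPKM. For VEGF-A and placental growth factor, Flt1 was at 0.293 to 1.27 FPKM and Kdr at 0.0806 to 0.783 FPKM.

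**Figure D4:**
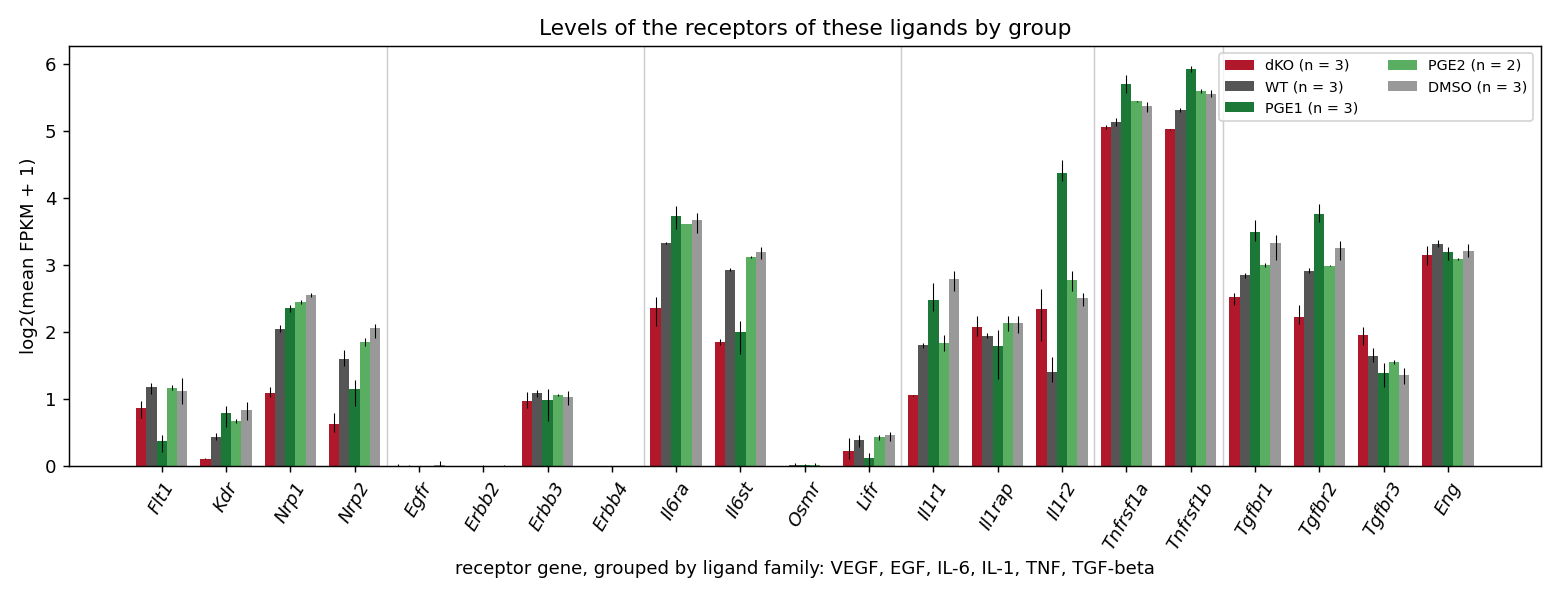
Mean level of 21 receptor genes on the log2(mean FPKM + 1) scale (y axis, from 0), grouped by ligand family (x axis), for the 5 groups; bars are group means and thin lines run from the lowest to the highest library (n = 3, and n = 2 for PGE2). Egfr, Erbb2, Erbb4 and Osmr are at or near 0 in every group, and the TNF receptors are highest.

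The lists of pathway genes are read beside the shares of all tested genes past the same threshold. Those were 18% higher and 22.9% lower in dKO against WT, 23.6% higher and 25.5% lower in PGE1 against DMSO, and 0.996% higher and 4.57% lower in PGE2 against DMSO. They were 27.2% higher and 26.7% lower in PGE1 against PGE2, and 26% higher and 30.7% lower in DMSO against WT. A list count near these shares is not a result about the list. In dKO against WT, 9 of the 15 receptors tested fell and 2 rose, with a list median of -0.31 on the log2 scale against -0.01 for all genes. Il6st fell to 2.61 ± 0.101 FPKM in dKO, against 6.63 ± 0.147 in WT (SD, n = 3 each; log2 difference -1.08, limma adjusted p = 6.59e-06), and its partner Il6ra fell to 4.11 ± 0.763 FPKM in dKO, against 9.06 ± 0.135 FPKM in WT (limma adjusted p = 3.01e-04). Nrp1, a coreceptor of VEGF-A, averaged 1.13 ± 0.117 FPKM in dKO libraries and 3.15 ± 0.152 FPKM in WT libraries (limma adjusted p = 5.65e-05), and Il1r1, the signalling receptor of IL-1, 1.08 ± 0.0151 FPKM in dKO libraries and 2.5 ± 0.0868 FPKM in WT libraries (limma adjusted p = 1.14e-04). With PGE1 against DMSO, 4 of 14 receptors rose and 2 fell, near the 49.1% of all genes called. Il1r2, a decoy that binds IL-1 without signalling, rose to 19.8 ± 2.52 FPKM with PGE1, against 4.69 ± 0.397 with DMSO (log2 difference 1.87, limma adjusted p = 6.14e-06), while Il6st fell to 3.02 ± 0.718 FPKM with PGE1, against 8.16 ± 0.607 FPKM with DMSO (limma adjusted p = 1.17e-04). With PGE2 against DMSO, Il1r1 alone of 14 passed, at 2.59 ± 0.429 FPKM with PGE2 (n = 2) and 5.92 ± 0.728 FPKM with DMSO (limma adjusted p = 0.00851, and 0.119 without PGE2 replicate 2, where the log2 difference was -0.83 against -0.95 with both libraries). Between the prostaglandins, 6 of 14 receptors were higher with PGE1 and 2 lower, and Il1r2 was again the clearest (log2 difference 1.61, limma adjusted p = 2.57e-05). In DMSO against WT, 10 of 15 rose and 1 fell, and Il1r1 had the smallest adjusted p among the IL-1 receptors (log2 difference 0.98, limma adjusted p = 5.11e-05), while Il1r2 had the larger log2 difference, at 1.10 (limma adjusted p = 9.45e-05).

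The genes that release or activate the ligands were mostly lower in dKO: of 14 tested, 11 fell, where 22.9% of all genes did, and 0 rose (limma), and 0 were higher at an unadjusted p under 0.05. Furin, the protease that cuts the TGF-β1 precursor, fell to 15.5 ± 1.18 FPKM in dKO, against 40.9 ± 1.75 in WT (limma adjusted p = 3.75e-06), while Tgfb1 itself overlapped between the groups. Nlrp3, the sensor of the inflammasome that activates caspase-1, fell to 3.21 ± 0.0526 FPKM in dKO, against 8.83 ± 0.631 FPKM in WT (limma adjusted p = 6.8e-06). With PGE1, 2 of 15 such genes rose and 6 fell. Thbs1, encoding thrombospondin-1, an activator of latent TGF-β1, rose to 1323 ± 126 FPKM with PGE1, against 370 ± 20.1 FPKM with DMSO (limma adjusted p = 4.75e-06). Nlrp3 fell to 5.7 ± 0.816 FPKM with PGE1, against 11.1 ± 0.42 FPKM with DMSO (limma adjusted p = 1.19e-04), opposite in direction to Il1b. With PGE2, Thbs1 was at 699 ± 17.3 FPKM (n = 2; limma adjusted p = 0.003, but 0.061 without PGE2 replicate 1 and 0.0556 without PGE2 replicate 2, at log2 differences of 0.89 and 0.94 against 0.92), and 1 of 15 rose and 1 fell. Between PGE1 and PGE2, 3 of 15 were higher and 5 lower. In DMSO against WT, 7 of 15 rose and 4 fell. The counts called with PGE1 and between the prostaglandins lie near the 49.1% and 53.9% of all genes called.

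Feedback inhibitors of these pathways differed with treatment and genotype. In DMSO against WT, 10 of 10 tested rose, with a list median of 0.98 on the log2 scale against -0.03 for all genes. Socs3, the brake on gp130 signalling, was at 36.6 ± 0.839 FPKM with DMSO and 10.1 ± 0.687 FPKM in WT (limma adjusted p = 1.87e-07), and Socs1, a brake on JAK kinases, at 33.2 ± 2.51 FPKM with DMSO and 6.29 ± 0.154 FPKM in WT (limma adjusted p = 1.02e-07). With PGE1, 3 of 11 rose and 5 fell, and Socs3 was at 6.13 ± 0.595 FPKM (limma adjusted p = 1.59e-07 against DMSO). With PGE2, 0 of 11 rose (1 at an unadjusted p under 0.05) and 5 fell (limma), Socs3 being at 20.3 ± 0.221 FPKM (n = 2; limma adjusted p = 6.80e-04 against DMSO). Of the 5, Il1rn, Socs1 and Errfi1 lost the call without DMSO replicate 2 or 3, and Nfkbia without DMSO replicate 1 or 3. Without PGE2 replicate 1 or 2, the log2 differences were -0.94 and -1.02 for Il1rn and -0.80 and -0.70 for Socs1. They were -0.79 and -0.65 for Errfi1 and -0.59 and -0.55 for Nfkbia. By group mean, Socs3 took the same order of DMSO, PGE2 and PGE1 as Pgf, Hbegf, Tnf, Il6, Lif and Tgfb1. Between PGE1 and PGE2, 4 of 11 were higher and 3 lower. In dKO against WT, 8 of 9 fell and Socs1 rose. Of those that fell, Il1rn, Tnfaip3 and Errfi1 passed the minimum only through the WT libraries, with dKO means of 0.698, 0.928 and 0.569 FPKM. The minimum favours a fall for such genes, so nothing is read from them.

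Regulators of ligand mRNA decay and of transcription were the next lists. Zfp36, whose product tristetraprolin speeds the decay of Tnf and other cytokine messages, fell to 8.3 ± 2.49 FPKM in dKO, against 41.0 ± 1.92 in WT (limma adjusted p = 4.22e-05). In that list of 10 mRNA decay and stability genes, 6 fell and 1 rose in dKO, 3 rose and 2 fell with PGE1, 0 passed with PGE2 (limma; 2 at an unadjusted p under 0.05, both higher), 3 were higher and 3 lower in PGE1 against PGE2, and 2 rose and 3 fell in DMSO against WT. Among transcription factors, Fos fell to 3.68 ± 1.3 FPKM in dKO against 154 ± 3.15 in WT (limma adjusted p = 1.15e-06) and Egr1 to 7.62 ± 3.84 FPKM in dKO against 118 ± 4.38 FPKM in WT (limma adjusted p = 3.28e-05), in a list where 6 of 12 fell and 2 rose. With PGE1, 8 of 13 rose and 1 fell: Crem, which encodes a CRE-binding factor, rose to 27.8 ± 6.2 FPKM with PGE1, against 4.18 ± 0.332 with DMSO (limma adjusted p = 4.81e-06), and Egr1 fell to 4.6 ± 1.09 FPKM with PGE1 against 91.9 ± 12.5 FPKM with DMSO (limma adjusted p = 2.79e-07). With PGE2, 2 of 13 rose and 1 fell, between PGE1 and PGE2 8 were higher and 2 lower, and in DMSO against WT 9 of 14 rose and 2 fell. Crem and Epas1 passed the minimum in DMSO against WT only through the DMSO libraries, with WT means of 0.913 and 0.986 FPKM. The minimum favours a rise for such genes, so nothing is read from them.

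Other ligands of the same families were counted in the same way. In dKO against WT, 2 of 9 rose and 3 fell, and 4 rose and 3 fell after quantile normalization. That normalization moved the median log2 difference of all genes in dKO against WT to 0.06, against -0.01 before it, and left 8 receptors, 12 release genes, 5 feedback inhibitors, 5 mRNA decay genes and 5 transcription factors lower in dKO. With PGE1 5 of 17 rose and 8 fell, and with PGE2 1 of 17 rose and 5 fell. Between PGE1 and PGE2, 5 of 17 were higher and 6 lower, and in DMSO against WT 10 of 16 rose and 1 fell. Inhba, Il33, Vegfc, Il18 and Il1a passed the minimum in DMSO against WT only through the DMSO libraries, with WT means of 0.349 to 0.905 FPKM. Among the treated groups Il33 passed only through the DMSO libraries, with means of 0.0538 FPKM with PGE1 and 0.607 FPKM with PGE2. The minimum favours higher levels with DMSO for such genes, so nothing is read from these counts. Tnfsf14, encoding the TNF relative LIGHT, averaged 6.91 ± 0.281 FPKM in dKO libraries and 11.6 ± 0.364 FPKM in WT libraries (limma adjusted p = 4.66e-05). It fell to 7.1 ± 0.491 FPKM with PGE1 (limma adjusted p = 1.41e-07) and to 15.1 ± 0.0204 FPKM with PGE2 (n = 2; limma adjusted p = 3.79e-05), against 36.6 ± 0.195 FPKM with DMSO. Inhba, which encodes the activin A subunit of the TGF-β family, separated the prostaglandins: it was at 8.44 ± 1.12 FPKM with PGE1, 1.76 ± 0.312 FPKM with PGE2 (n = 2) and 9.09 ± 1.61 FPKM with DMSO (limma adjusted p = 4.16e-05 for PGE1 against PGE2 and 2.63e-04 for PGE2 against DMSO).

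Across the 14 libraries, the genes whose level ran most like each ligand were found by Pearson's r of log2(FPKM + 1) among 10540 genes, as a description, since libraries of a group share their treatment and sequencing depth. Nearest to Pgf were Tnfsf14 (r = 0.995), Fst (r = 0.983) and Scimp (r = 0.973). Nearest to Tnf were Tnfsf14 again (r = 0.981), Pgf (r = 0.972) and Hgsnat (r = 0.972), so Pgf and Tnf had the same closest gene. Vegfa ran most like Trf (r = 0.968), Thbs1 (r = 0.965) and Rassf3 (r = 0.958). Hbegf ran most like D8Ertd82e (r = 0.970), Adcy3 (r = 0.968) and Rps6ka2 (r = 0.965). Il1b ran most like Ap2a2 (r = 0.974), Mcl1 (r = 0.963) and Abcc3 (r = 0.958). For Tgfb1 the nearest were Id1 (r = 0.975), Pkdcc (r = 0.962) and Coro2a (r = 0.959), and for Il6 they were Akr1c18 (r = 0.955), Nras (r = 0.924) and Stfa2 (r = 0.922). Osm had the weakest neighbours, Lcp2 (r = 0.923), Ccl6 (r = 0.890) and Rhoq (r = 0.881). Areg and Lif were below the expression minimum and were not compared.

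The ligands were also read beside markers of further cell types. Megakaryocyte and platelet cells are a known source of TGF-β1, and 7 of 7 of their markers were lower in dKO, summing to 48.4 to 97.6 FPKM in dKO and 217 to 239 FPKM in WT, while Tgfb1 overlapped between those groups. That sum was 260 to 375 FPKM with PGE1, 304 to 315 FPKM with PGE2 and 229 to 288 FPKM with DMSO. Markers of T and NK cells summed to 84.1 to 90.2 FPKM in dKO, 67.6 to 68.0 in WT, 11.8 to 19.9 with PGE1, 58.0 to 59.1 with PGE2 and 40.3 to 47.4 with DMSO, with Cd3e and Cd3g at 0 in dKO and Cd3g at 0 with PGE2. Nkg7 alone made nearly all of that sum, at 87.3 FPKM in dKO, 67.3 in WT, 10.4 in PGE1, 58.1 in PGE2 and 42.2 in DMSO libraries. Of the 2 genes tested in PGE1 against DMSO 1 was higher and 1 lower, Gzma being at 3.65 FPKM with PGE1 and 0.383 FPKM with DMSO. Gzma passed the expression minimum only through the PGE1 libraries. Stromal and endothelial markers summed to 39.9 to 48.6 FPKM in dKO, 46.0 to 50.2 in WT, 41.3 to 43.2 with PGE1, 38.2 to 40.1 with PGE2 and 52.3 to 61.1 with DMSO, with Cxcl12 at 0 in dKO and PGE2 and Col3a1 at 0 in dKO. Pecam1, which blood cells also express, made nearly all of it, at 43.8 FPKM in dKO, 45.9 in WT, 39.3 in PGE1, 37.3 in PGE2 and 55.8 in DMSO libraries, while Pdgfrb was at 1.98 FPKM with PGE1 and 1.05 FPKM with DMSO. Exposure to DMSO, handling, time in culture and sequencing depth differed together between the DMSO and WT libraries. The higher level of 9 ligands with DMSO therefore cannot be assigned to any of them alone.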

How the data were processed

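The 14 RNA libraries are of sorted mouse LSCs. For each, the authors deposited a file of FPKM values, made with CASAVA 1.8, TopHat and Cufflinks against the mouse build mm9, per the submitters' processing notes. Annotation, strand handling and treatment of multiply mapped reads were not given in the sources used here. Genes are identified by their symbol. Groups follow the sample titles. The 10 ligands and the lists were chosen with earlier results of these data known. All 10 are named. From 6 pathway lists (107 genes), at most 4 genes per list and comparison with the smallest adjusted p are named, with receptors beside their ligands, and 3 genes of the most similar pattern per ligand. Further listed genes are named where they limit a count.

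Whole reads were recovered from the deposited FPKM of 19057 of 19057 genes with reads (100%, within 0.002 reads; 5406 further genes were at 0), with Python 3.11.15. They gave depth, exact 95% Poisson intervals and the level of 3 reads, all for counting error only. Tests were two-sided and used limma 3.58.1 (R 4.3.3; a linear model with a moderated variance that follows the mean level) on log2(FPKM + 1) of the deposited values. Genes averaging under 1 FPKM over a fit's libraries were left out, with Benjamini-Hochberg adjustment over all genes and a threshold of 0.05. One fit held dKO and WT, another PGE1, PGE2 and DMSO, and another DMSO and WT. The procedure was tested on simulated data. Alternatives were a pseudocount of 0.1, no minimum or 5 FPKM, quantile normalization, median-of-ratios scaling, a replicate block, and leaving out each library. Promoter sequences are RefSeq's, of a later build than mm9, and no deposited coordinate was used.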

Additional observations from a re-analysis of the deposited data

How the results depend on the processing

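No ligand that passed the threshold changed direction under any alternative. Of those that missed it, Tgfb1 in dKO against WT (0.08) was -0.06 after quantile normalization, Osm in dKO against WT (-0.09) was 0.14 without dKO replicate 2 and 0.07 without dKO replicate 3 (range without 1 library -0.49 to 0.14), and Il1b in PGE1 against PGE2 (0.10) was -0.08 without PGE1 replicate 1 (range -0.08 to 0.35). Tgfb1 in DMSO against WT passed after quantile normalization (0.12) and median-of-ratios scaling (0.13). PGE2 against DMSO, with 2 PGE2 libraries, depended most on the processing. Its 626 genes called became 269 with a replicate block and 125 to 520 when a library was left out. Its 17 pathway genes became 11 with a minimum of 5 FPKM, 10 with the block, and 4 to 17 when a library was left out. The 51 pathway genes called in dKO against WT became 32 with a minimum of 5 FPKM, which tests fewer genes. Without a library, genes called numbered 3053 to 5277 for dKO against WT, 4534 to 6126 for PGE1 against DMSO, 4253 to 6653 for PGE1 against PGE2 and 5315 to 7183 for DMSO against WT. With the replicate block these were 3972, 5191, 5313 and 6175. Same-numbered libraries did not deviate together (correlations of -0.25 to 0.25 over the comparisons), so the numbers are not taken as pairs, and with the block Tnf in PGE2 against DMSO lost its call (-0.60). The cause of these changes was not tested. Areg, Il6 in untreated cells and with PGE1, Il1b in dKO and Pgf in dKO and PGE1 rest on 28 reads or fewer per library. Small differences there were not detectable.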
